A study of Oncorhynchus mykiss with 48 samples.

Results

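The 2 amounts of bisphenol A (BPA) that rainbow trout eggs carried at fertilization were compared directly with each other in the livers of the F1 fish at 365 days post-fertilization (dpf). The members were the 4 fish labelled with 40 ng of BPA per egg (BPA40) and the 4 fish labelled with 4 ng per egg (BPA4), which are 8 of the 48 fish of the series. They were chosen by these labels and not by any measured value. The series holds liver RNA sequencing of 4 fish in each of 3 treatments (Control, BPA4 and BPA40) at each of 4 time points, F1 at 140 and 365 dpf and F2 at 112 and 365 dpf. Eggs of several untreated F0 females were pooled and held for a few hours before fertilization in ovarian fluid with 3 mg/l BPA (BPA4), 30 mg/l BPA (BPA40) or the ethanol vehicle alone (Control). They were then fertilized with pooled milt of untreated males, and the F1 fish that grew from them were raised in clean water without further exposure. According to the study's methods, the F1 fish were kept in replicate tanks and food was withheld before sampling. The labels give no tank, sex, family or sequencing batch for any fish, so their part in the results was not tested, and the p-values measure the spread between these fish. F2 fish are named by the treatment of the F0 eggs from which their F1 mothers grew. For the longer-term rearing of the F2 fish the study had a single tank per treatment. Differences between doses in these fish cannot be told apart from differences between tanks.

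Bisphenol A is a monomer of polycarbonate plastics and epoxy resins that can bind estrogen receptors. Egg-laying vertebrates pass such lipophilic compounds to the yolk, so that the embryo is exposed before it feeds. The liver stores and mobilizes lipid and glycogen, makes plasma proteins and clears foreign compounds, and in female fish it also makes the yolk precursor vitellogenin under the control of estrogen.

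For each fish the authors deposited the number of sequenced fragments assigned to each of 46585 gene models, and their FPKM (fragments scaled to transcript length and sequencing depth). Between 13981939 and 15672930 fragments per fish were assigned in BPA4, between 14568717 and 19127371 in BPA40 and between 13604271 and 17395299 in the 4 Control fish of the time point. The 14 genes that the authors' program left unmeasured in any treatment of the time point, because they held too many fragments (status HIDATA), were dropped from all fish. Levels are given below as CPM, the fragments of a gene scaled to a common library size with TMM factors. The gene models are known here only by their identifiers, of which 0 of 46585 matched the reference table of named trout genes. Gene functions are therefore not given, the liver identity of the samples could not be checked against marker genes, and near-identical gene copies could not be recognized. In liver tissue, fewer cells of a type and less RNA per cell cannot be told apart.

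The technical measures of the 8 livers overlapped between the doses, for fragments and genes detected only through BPA40 replicate 3. After the dropped genes were taken out, BPA40 fish held 13736825 to 18432866 fragments and BPA4 fish 13981939 to 15672930 (exact two-sided permutation test, p = 0.257). Genes with at least 5 fragments numbered 25644 to 27658 in BPA40 and 25746 to 26414 in BPA4 (exact permutation p = 0.171). The TMM factor ran from 0.896 to 1.16 in BPA40 and from 0.921 to 1.05 in BPA4 (exact permutation p = 0.371). Among the genes left after that drop, the 10 most abundant took 9.78% ± 0.699 of fragments in BPA40 and 9.78% ± 0.643 in BPA4 (SD, n = 4; exact permutation p = 1). The smallest adjusted p over these 4 measures was 0.495. The median correlation between the log2(FPKM + 1) values of 2 fish was 0.931 within BPA40, 0.943 within BPA4 and 0.942 between fish of different doses. The median SD of log2 CPM between the fish of a group was 0.373 in BPA40, 0.335 in BPA4 and 0.370 in Control. It was 0.305 in BPA40 without replicate 2.

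No single gene passed the threshold when BPA40 was compared with BPA4, but more genes than an even spread of p-values gives lay at low p-values, and most of those were higher in BPA40. Of 24243 genes tested with edgeR's quasi-likelihood test in a fit of the 12 fish of the time point, 0 had an adjusted p under 0.05 (0%), and the smallest adjusted p was 0.125. At an unadjusted p under 0.05 lay 2004 genes (8.27%), of which 1336 (5.51%) were higher and 668 (2.76%) lower in BPA40. At an unadjusted p under 0.01 these numbers were 404 (1.67%) and 113 (0.466%), and under 0.001 they were 71 (0.293%) and 3 (0.0124%). In 822 genes (3.39%) all 4 BPA40 fish lay above all 4 BPA4 fish, and in 475 (1.96%) they all lay below. Over the 70 splits of 8 fish, such a separation in either direction has an exact two-sided permutation p of 0.0286. Some genes would therefore separate so without any difference between the doses. Other tests called 89 genes (DESeq2, 82 higher and 7 lower), 61 (edgeR's likelihood-ratio test, 56 and 5), 1 (limma-trend on log2(FPKM + 1), higher) and 0 (limma-voom with fish quality weights). Leaving out Control replicate 3 gave 2 called genes, both higher in BPA40. With each fish left out in turn, the share of genes at an unadjusted p under 0.05 ran from 5.92% to 9.81%. The lowest share was without BPA4 replicate 1, and without BPA40 replicate 1 it was 6.01%. An even spread of p-values over the 24243 genes would put 1212 there. Genes are not independent replicates, and whether the excess exceeds chance was not tested.

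The share of the low p-values that pointed to BPA40 was 66.7%. Over all genes tested, the log2 fold change was above 0 in 51.6% and its median was 0.01. Without TMM scaling the median of all genes moved to 0.11 and the share rose to 86.1% (1812 higher and 292 lower). With fragments thinned to the smallest total it was 66.7% (1300 higher and 648 lower). Leaving out each of the 12 fish in turn gave shares between 59.7% and 70.9%. The 12 genes with the smallest p were all higher in BPA40, by 1.06 to 2.55 on the log2 scale, with all BPA40 fish above all BPA4 fish. Separated doses follow in part from ranking by p. The doses did not overlap in 97 of the 100 and 402 of the 500 genes of smallest p. In all 12 genes of smallest p the Control mean lay between the doses, as it did for 34.1% of all genes tested. It was nearer BPA4 in 10 and nearer BPA40 in 2, in 59 and 36 of the 100 genes of smallest p, and in 268 and 179 of the 500 of smallest p. The first gene lower in BPA40 stood at rank 32 (edgeR adjusted p = 0.313).

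**Figure D1:**
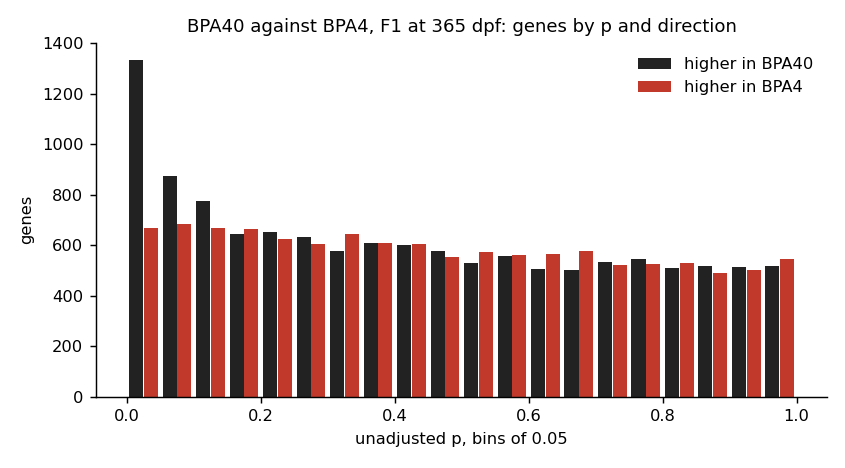
Number of genes (vertical axis) in each bin of unadjusted p of width 0.05 (horizontal axis) for BPA40 against BPA4 in F1 at 365 dpf, split by the direction of the fold change. The lowest bin holds 1336 genes higher in BPA40 and 668 higher in BPA4, against 519 and 544 in the highest bin.

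The precision of 4 fish against 4 sets what can be said of the remaining genes. The median standard error of the log2 fold change was 0.29, and the 95% interval of a gene reached 0.63 to either side in the median. For 14212 genes (58.6%) the whole interval, unadjusted for the number of genes, lay within a 2-fold difference in either direction. For 4600 genes (19%) it lay within 1.5-fold. With genes ranked by FPKM into 5 bins of equal size, 75.8% of intervals lay within 2-fold in the highest bin and 29.5% in the lowest. No gene was listed at 0 fragments in all fish of one dose while every fish of the other held at least 5 fragments (0 genes in each direction).

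Low-level genes held a larger part of the genes higher in BPA40. From the lowest to the highest of the 5 FPKM bins, 6.33%, 7.01%, 5.51%, 4.81% and 3.90% of genes were higher at an unadjusted p under 0.05. The share of lower genes was 2.47% in the lowest bin and 3.24% in the highest. The median log2 fold change of the bins went from 0.08 in the lowest to −0.04 in the highest. The 100 most abundant genes of the Control livers were ranked by Control FPKM after the HIDATA genes were dropped. HIDATA status stood in 14 genes in BPA4 and 10 in Control, so the BPA4 fish had a part in that drop. Of the 100 ranked genes, 1 (1%, against 5.51% of all genes tested) was higher and 8 (8%, against 2.76%) were lower at an unadjusted p under 0.05. Their median log2 fold change was −0.20 against 0.01 for all genes tested, and it was −0.35 without BPA40 replicate 3, −0.12 without BPA40 replicate 2 and −0.12 without TMM scaling. The level of this list, taken as the median deviation of log2 CPM from the mean of the 12 fish, overlapped between doses, at −0.34 to 0.18 in BPA40 and −0.04 to 0.24 in BPA4. BPA40 replicate 3 lay at the top of its group.

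The 4 genes described by identifier are the gene of smallest p and an abundant gene in each direction. The abundant genes were picked among genes at an unadjusted p under 0.05 whose doses did not overlap. The gene of smallest p, GSONMT00062445001, had a mean FPKM of 7.16 over the 8 fish, against a median of 2.29 for all genes tested. Its CPM was 4.62, 3.85, 4.70 and 5.54 in BPA40, 1.02, 0.522, 1.34 and 0.822 in BPA4, and 2.04, 2.06, 1.08 and 1.24 in Control. The BPA40 fish lay above every other fish of the time point, while BPA4 and Control overlapped. The fragments behind these values numbered 66 to 89 per BPA40 fish and 8 to 20 per BPA4 fish. The log2 fold change was 2.33 (SE 0.308, 5.02-fold), with an edgeR adjusted p of 0.125. BPA40 exceeded Control by 1.53 on the log2 scale and BPA4 differed from Control by −0.80, in comparisons that share fish with the dose contrast (edgeR adjusted p = 0.652 and 0.829).

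The abundant gene higher in BPA40, GSONMT00052436001, had 1698, 1694, 1699 and 1497 CPM in BPA40. In BPA4 it had 1219, 799.9, 1176 and 994.8, and in Control 1381, 1292, 953.8 and 793.1. All BPA40 fish lay above all fish of the other groups, and the BPA4 range lay inside the Control range. The separation of BPA40 from BPA4 was required by the choice of this gene and is not a separate result. Its Control level was not part of that rule, but the Control fish enter the spread estimate behind its p. The BPA40 values were part of the rule, so their distance from Control follows in part from the choice. The means were 1647 ± 100.1 CPM in BPA40, 1047 ± 191 in BPA4 and 1105 ± 278 in Control (SD, n = 4). The log2 fold change between the doses was 0.65 (SE 0.203), with an edgeR adjusted p of 0.455.

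The gene of smallest p among those lower in BPA40 was GSONMT00080773001. Its CPM was 19.1, 47.8, 53.9 and 26.8 in BPA40, 456, 372, 64.4 and 254 in BPA4, and 61.3, 97.1, 18.8 and 95.5 in Control. The doses did not overlap, but BPA4 replicate 2 lay close to the BPA40 fish and within the Control range. The log2 fold change was −2.96 (SE 0.621), with an edgeR adjusted p of 0.313. BPA4 exceeded Control by 2.07 on the log2 scale (edgeR unadjusted p = 0.00452, adjusted p = 0.829). BPA40 differed from Control by −0.89 (edgeR unadjusted p = 0.154, adjusted p = 0.727). Both comparisons share fish with the dose contrast that picked the gene, so their values follow in part from that choice.

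The abundant gene lower in BPA40 was GSONMT00011511001, at 2692, 3850, 2953 and 5083 CPM in BPA40 and 7613, 5286, 6939 and 8321 CPM in BPA4. The Control fish spread over both doses, at 4714, 3163, 8561 and 6954 CPM. The log2 fold change was −0.95 (SE 0.307), with an edgeR adjusted p of 0.456.

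**Figure D2:**
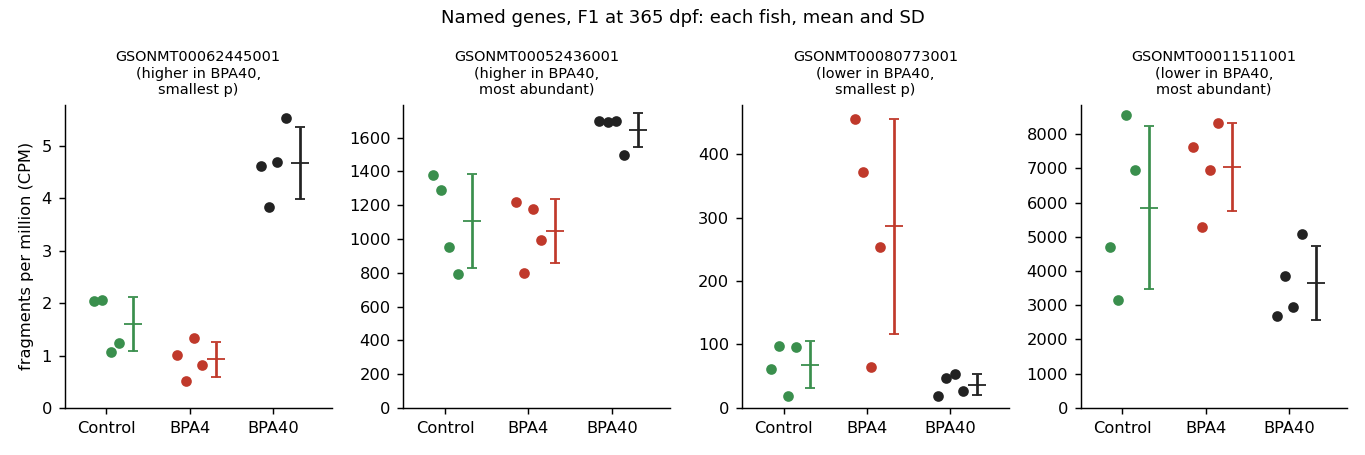
Level in CPM (vertical axis, from 0) of the 4 named genes in each of the 12 fish of F1 at 365 dpf, by treatment, with the mean and SD of each group beside the points. The BPA40 fish of GSONMT00062445001 lie between 3.85 and 5.54 CPM, above all other fish, and those of GSONMT00080773001 between 19.1 and 53.9, below all BPA4 fish.

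Set beside the controls, the genes that differed between the doses at an unadjusted p under 0.05 mostly had a Control mean between the doses. Of the 1336 genes higher in BPA40, the Control mean was between the doses and nearer BPA4 in 43.8%, between and nearer BPA40 in 37%, below both in 11% and above both in 8.23%. Among all genes tested these shares were 17.7%, 16.4%, 32.7% and 33.2%. Genes picked because the doses stand far apart leave more room between them, so that a Control mean between the doses follows in part from the choice. The median log2 fold change of the higher genes was 0.81 between the doses, 0.41 for BPA40 against Control and −0.39 for BPA4 against Control. For the 668 lower genes these medians were −0.61, −0.36 and 0.23. Both comparisons with Control share fish with the dose contrast that picked the genes, so the medians and their opposite signs follow in part from that choice. Over all genes, the comparisons with Control gave 1841 genes (7.59%) for BPA40 and 1425 (5.88%) for BPA4 at an unadjusted p under 0.05, and 0 called genes each (edgeR). For BPA40 these were 980 (4.04%) higher and 861 (3.55%) lower than Control, and for BPA4 472 (1.95%) higher and 953 (3.93%) lower. The comparisons with Control are given with edgeR only, while the number of called genes in the dose contrast depended on the test. With Cuffdiff the study reported genes that differed from Control at this time point.

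A principal component analysis of log2(FPKM + 1) over the 8 fish, with 39216 genes centred and scaled, placed the doses apart on the second component. Scores on it were 84.4, 75.2, 15.1 and 100.8 in BPA4 and −111, −99.3, −5.80 and −59.1 in BPA40. The doses did not overlap, and the closest fish were BPA4 replicate 2 and BPA40 replicate 2. The second component held 17.8% of the variance, and 77.5% of its own variance lay between the doses (exact two-sided permutation test, p = 0.0286, the smallest that 4 fish against 4 allow, and 0.0857 after adjustment over 3 components). The first component held 20.04% of the variance with 2.86% of it between the doses, and the third 15.4% with 8.42%. Without BPA40 replicate 2 or 3 the largest share between the doses was on the first component instead, at 90.1% and 60.0%, with 0.303% and 23.7% on the second. The exact permutation p on the first component was 0.0286 without replicate 2 and 0.0571 without replicate 3 (adjusted p = 0.0857 and 0.171). Without BPA4 replicate 0 or 1 the share on the second component was 55.6% and 59.0% (exact permutation p = 0.0857, adjusted p = 0.257 for both). With genes centred and not scaled, the largest share between the doses on any of the 3 components was 35.1%.

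**Figure D3:**
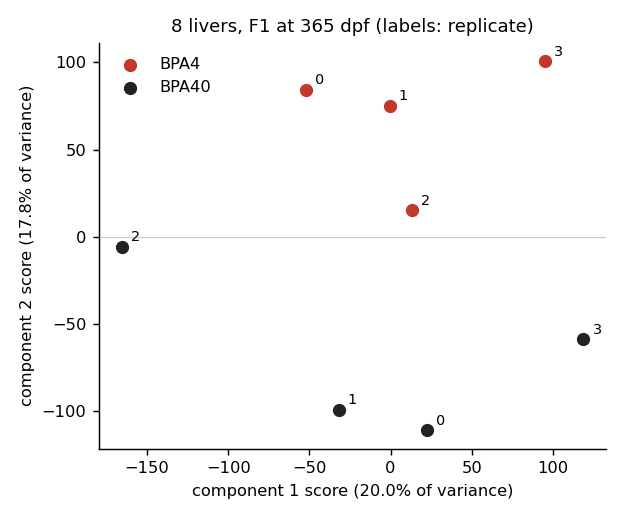
Scores of the 8 fish on the first component (horizontal axis, 20.04% of the variance) and the second component (vertical axis, 17.8%) of log2(FPKM + 1), with the replicate number beside each point. All BPA4 fish have scores above 0 and all BPA40 fish scores below 0 on the second component, and BPA40 replicate 2 lies farthest out on the first component at −165.

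The same contrast of doses was made in fish outside this comparison, and the genes that differed at F1 365 dpf leaned the same way in the F1 fish of 140 dpf. Of the 1336 higher genes, 1043 were tested at F1 140 dpf, and 291 of them (27.9%) were also higher there at an unadjusted p under 0.05, against 6.46% of all genes tested at both ages, while 2 were lower. Of the 668 lower genes, 615 were tested there, and 80 (13%) were also lower, against 4.49%, while 7 were higher. Their median log2 fold changes at 140 dpf were 0.44 and −0.22, against 0.00 for all genes. Across the 20588 genes tested at both ages, the log2 fold changes had a Pearson correlation of 0.324 and a Spearman correlation of 0.325. Genes are not independent replicates, and these values are given as a description. The fish of both ages came from the same F1 groups, and whether fish of the same tank or family entered at both ages is not in the labels.

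The reverse view starts from the genes that differed at F1 140 dpf. Its 291 higher and 80 lower genes at both ages are the genes counted above, so these counts are not a separate result. The 1330 genes that were higher in BPA40 than BPA4 at F1 140 dpf at an unadjusted p under 0.05, and were tested at 365 dpf, had a median log2 fold change of 0.31 at 365 dpf, with 84.6% above 0. At 365 dpf, 291 of them (21.9%, against 5.51% of all genes tested) were higher and 7 lower at an unadjusted p under 0.05, and in 224 (16.8%, against 3.39%) all BPA40 fish lay above all BPA4 fish. The 925 genes lower at F1 140 dpf had a median of −0.19 at 365 dpf, with 80 lower (8.65%, against 2.76%) and 2 higher, and in 44 (4.76%, against 1.96%) all BPA40 fish lay below all BPA4 fish. Without TMM scaling this median was −0.09. The list of higher genes had a level at 365 dpf of 0.18, 0.24, 0.47 and 0.10 in BPA40, −0.04, −0.14, 0.04 and −0.16 in BPA4, and 0.02, −0.03, −0.03 and −0.27 in Control, as the median deviation of log2 CPM from the mean of the 12 fish. All BPA40 fish were above all BPA4 and Control fish. The list of lower genes had a level of −0.10, −0.12, −0.26 and −0.02 in BPA40 and 0.07, 0.14, 0.00 and 0.14 in BPA4. Here too the doses did not overlap, while the Control fish, from −0.04 to 0.13, overlapped both.

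Across the 25 other settings of the test at 365 dpf, including each fish left out in turn, between 14.3% and 27% of the genes of the higher list were higher, against 3.76% to 7.66% of all genes tested. Between 4.97% and 11.4% of the lower list were lower, against 1.20% to 4.53%. Taken as a ratio, the 2 shares were closest without BPA40 replicate 2. They were 17.8% against 5.89% (ratio 3.02) for the higher list and 7.44% against 3.92% (ratio 1.9) for the lower list. The technical measures of the F1 140 dpf fish overlapped between doses, with 11643973 to 13319233 fragments in BPA40 and 11522480 to 13703838 in BPA4, and TMM factors of 0.903 to 1.16 and 0.827 to 1.17. Their part in the shared genes was not tested.

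**Figure D4:**
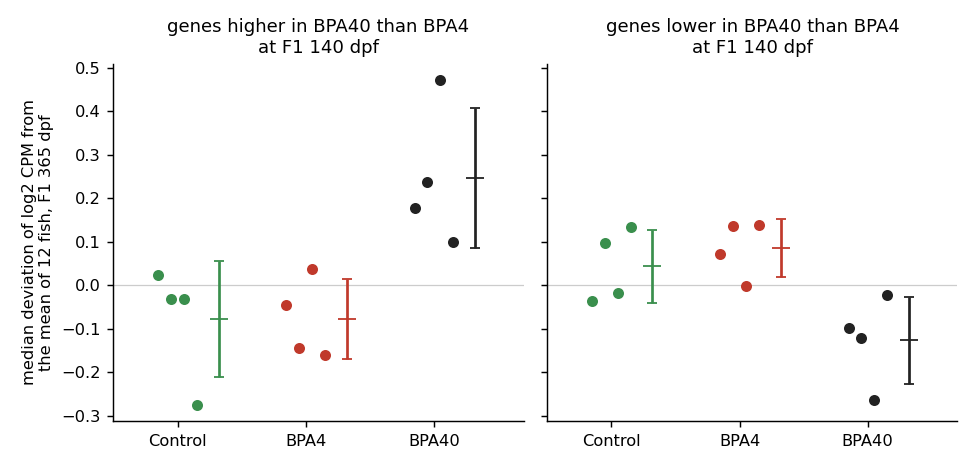
Level of the genes higher (left) and lower (right) in BPA40 than BPA4 at F1 140 dpf, measured in the 12 fish of F1 at 365 dpf, as the median deviation of log2 CPM from the mean of these fish (vertical axis), with mean and SD of each group. In the left panel the BPA40 fish lie between 0.10 and 0.47 and the BPA4 fish between −0.16 and 0.04.

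A joint fit of the 24 F1 fish, in which the BPA40-against-BPA4 difference was averaged over 140 and 365 dpf, called 251 of 24817 genes at an edgeR adjusted p under 0.05. In the average, 215 genes (0.866%) were higher in BPA40 and 36 (0.145%) lower. This fit was added after the lists above had been seen. The size of the averaged difference had a median of 0.97 on the log2 scale and ran from 0.45 to 4.08, with 118 genes beyond 2-fold. Of the 215 higher genes, 214 were tested at 365 dpf alone, all 214 had a fold change above 0 there, and 191 had an unadjusted p under 0.05, which follows in part from the average. With DESeq2 the average called 586 genes, 448 higher and 138 lower. With the replicate number as a block in edgeR it called 93 genes, 82 higher and 11 lower. The edgeR count also depended on single fish. It was 98 without BPA4 replicate 1, 120 without BPA40 replicate 1, 130 without BPA4 replicate 0 and 165 without BPA40 replicate 0 of 365 dpf, and 120 without BPA4 replicate 2, 149 without BPA4 replicate 3 and 167 without BPA40 replicate 0 of 140 dpf. The same average with the F2 fish called 2 of 24750 genes for F2 112 dpf, both higher (0.00808%), and 4 of 27073 for F2 365 dpf, 3 higher (0.0111%) and 1 lower (0.00369%), with 1387 and 2501 genes at an unadjusted p under 0.05. With at least 10 fragments required in every fish these counts were 0 and 2, and with DESeq2 8 and 58. With the replicate number as a block they were 0 and 0.

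Both named genes higher in BPA40 passed in the F1 average, which follows in part from their choice in the 365 dpf fish. At 140 dpf alone their log2 fold changes were 1.75 for GSONMT00062445001 and 0.87 for GSONMT00052436001 (edgeR adjusted p = 0.312 and 0.231). GSONMT00062445001 had an averaged log2 fold change of 2.04 (SE 0.320, edgeR adjusted p = 0.00267). At 140 dpf its CPM was 0.760 to 2.31 in BPA40, 0.0987 to 0.937 in BPA4 and 0.556 to 1.54 in Control, so that the doses overlapped at that age. GSONMT00052436001 had an averaged log2 fold change of 0.76 (SE 0.149, edgeR adjusted p = 0.0127). At 140 dpf it had 2139, 2237, 2133 and 2291 CPM in BPA40 and 1138, 1268, 850.02 and 1552 CPM in BPA4. All BPA40 fish lay above all BPA4 fish at that age, in fish that took no part in its choice. The Control fish, at 1290 to 2187 CPM, overlapped both doses there. At F2 365 dpf the doses overlapped for this gene, at 1029 to 2092 CPM in BPA40 and 1398 to 1794 CPM in BPA4. The named genes lower in BPA40 did not pass in the F1 average, at −1.61 for GSONMT00080773001 (edgeR adjusted p = 0.380) and −0.65 for GSONMT00011511001 (edgeR adjusted p = 0.144). At 140 dpf GSONMT00080773001 ranged from 6.29 to 225 CPM in BPA40 and from 8.37 to 218 CPM in BPA4. At that age the ranges of the doses were nearly the same.

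A difference between the ages was tested as the interaction of dose and time point. Between F1 365 and 140 dpf, 0 of 24817 genes passed with edgeR, and 830 (3.34%) lay at an unadjusted p under 0.05. Against F2 365 dpf, 0 of 27073 genes passed, 2032 (7.51%) lay at an unadjusted p under 0.05, and the smallest adjusted p was 0.174. DESeq2 called 55 genes for this second interaction and 0 for the first, and edgeR called 3 for the second without BPA40 replicate 3. GSONMT00062445001 was among the genes with the adjusted p of 0.174. Its dose difference was 2.27 larger on the log2 scale in F1 than in F2 (edgeR unadjusted p = 1.36e-05). The gene was named for its smallest p in the same F1 365 dpf fish, so this difference and its p follow in part from that choice. At F2 365 dpf it had 3.22 to 4.72 CPM in BPA40 and 3.24 to 5.03 in BPA4. In that generation the doses overlapped, and its log2 fold change was 0.07.

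The F2 fish were examined in the same way, although dose and tank cannot be told apart in them. Of the 1336 genes higher at F1 365 dpf, 1326 were tested at F2 365 dpf, and 61 (4.60%) were higher there against 5.28% of all genes tested at both, with 25 lower. Of the 668 lower genes, 663 were tested there, and 33 (4.98%) were lower against 3.35%, while 35 (5.28%) were higher against 5.28%. At F2 112 dpf, 11 of 697 higher genes (1.58%) were higher against 1.37%, and 7 of 537 lower genes (1.30%) were lower against 1.31%. The median depth at F2 112 dpf was 11058370 fragments, against 14826572 at F1 365 dpf, and BPA4 replicate 1 there held 6788947. The part of depth in these shares was not tested. The Pearson correlation of log2 fold changes across genes was 0.084 with F2 365 dpf over 23997 genes and 0.024 with F2 112 dpf over 15823 genes. On their own, the other time points gave 2 called genes (F1 140 dpf, 0.00949% of 21078), 0 (F2 112 dpf, of 16315) and 0 (F2 365 dpf, of 26296) with edgeR, and 183, 10 and 235 with DESeq2. At an unadjusted p under 0.05, F1 140 dpf gave 2306 genes (10.9%), 6.46% higher and 4.48% lower in BPA40. F2 112 dpf gave 454 (2.78%), 1.43% higher and 1.35% lower. F2 365 dpf gave 2296 (8.73%), 5.43% higher and 3.3% lower.

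**Figure D5:**
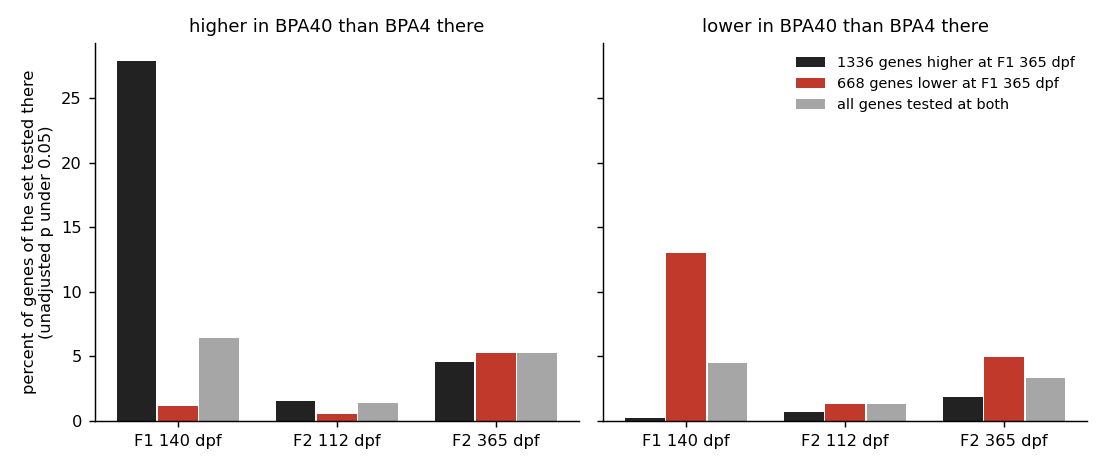
Percent of genes (vertical axis) that were higher (left) or lower (right) in BPA40 than BPA4 at an unadjusted p under 0.05 at each other time point, for the 1336 genes higher at F1 365 dpf, the 668 genes lower at F1 365 dpf and all genes tested at both time points. At F1 140 dpf the higher genes reach 27.9% against 6.46% of all genes, and at F2 365 dpf they stand at 4.60% against 5.28%.

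Genes that changed with age in the F1 Control livers were also examined, since the BPA fish took no part in that list beyond the drop of HIDATA genes. The Control fish of 365 dpf also enter the spread estimate of the dose test, so the list is not independent of that test. Of 21817 genes tested in the 8 Control fish of both ages, 5535 (25.4%) rose and 4421 (20.3%) fell between 140 and 365 dpf at an edgeR adjusted p under 0.05. Of the 5535 genes that rose, 468 (8.46%) were higher and 97 (1.75%) lower in BPA40 than BPA4 at an unadjusted p under 0.05, against 5.51% and 2.76% of all genes tested. Their median log2 fold change was 0.10, with 60.1% above 0. It was 0.02 without BPA40 replicate 3, 0.04 without BPA4 replicate 0, 0.15 without BPA40 replicate 2, 0.16 without BPA4 replicate 3 and 0.17 without TMM scaling. The level of this list overlapped between the doses, at −0.01, 0.00, −0.24 and 0.12 in BPA40 and −0.29, −0.21, −0.02 and 0.05 in BPA4. The Control fish, whose values made the list, lay above them at 0.15 to 0.21. Of the 4353 genes that fell with age and were tested, 126 (2.89%) were higher and 131 (3.01%) lower, against 5.51% and 2.76% of all genes tested. The median log2 fold change of these fallen genes was −0.03, which turned to 0.03 without BPA4 replicate 0 and to 0.07 without TMM scaling. Of 80 tested genes that rose in BPA40 against Control at F2 365 dpf, 1 (1.25%) was higher and 0 were lower at an unadjusted p under 0.05. Of 17 that fell there, 0 were higher and 1 (5.88%) was lower. Among all genes tested these shares were 5.51% higher and 2.76% lower. The median log2 fold changes of the genes that rose and fell at F2 365 dpf were 0.11 and −0.24, and the first became −0.91 without BPA40 replicate 3. The 500 genes most variable between the Control fish had 6 higher (1.2%) and 7 lower (1.4%) members and a median of 0.21, which became −0.44 without the same fish. The spread estimate of the test includes these Control fish. Few low p-values among genes that vary between them therefore follow in part from the choice.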

How the data were processed

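Liver RNA of the F1 fish at 365 dpf was sequenced from stranded mRNA libraries. Per the submitters' processing notes, the authors used bcl2fastq, Bowtie2 2.2.6, TopHat2 2.1.0 and Cufflinks, and per the study's methods they compared treatments with Cuffdiff. The deposited raw fragment counts are whole numbers without normalization (100% of entries). The deposited FPKM values were normalized by Cuffdiff per time point (12 fish). HIDATA entries are listed at 0. Another 8 columns of scaled fragments were not used.

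Groups came from the treatment labels. The descriptions of the BPA40 fish give 3 mg/l where their titles and the study give 30 mg/l, and the titles of the early F2 fish say 140 dpf where their other labels say 112 dpf. Counts were tested with edgeR 4.0.16 (glmQLFit, glmQLFTest, TMM, filterByExpr, 12 fish, no covariates) in R 4.3.3, with Benjamini-Hochberg adjustment over all genes tested and a threshold of 0.05. The tested genes held 99.77% of fragments. The common coefficient of biological variation was 34.8%. The standard error is the log2 fold change divided by the square root of the F statistic. The interaction and the average of 2 time points used 24 fish. Alternatives used DESeq2 1.42.0 and limma 3.58.1, with a pseudocount of 1 and a mean FPKM of at least 1 for limma-trend. Other alternatives were RLE size factors, no TMM, no filter, at least 10 fragments in every fish, fits of 8 or 24 fish, fragments thinned to the smallest total (seed 1), the replicate block and each fish left out. List levels used log2 CPM with a prior count of 2. Exact permutation tests were two-sided over the 70 splits of 8 fish, or over all splits of the remaining fish where a fish was left out. Figures used matplotlib 3.10.9. The tests were tried on simulated data.

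The 12 same-group pairs of fish had a chi-square per degree of freedom of 33.4 to 112, so none were duplicates. Named genes were, per direction, the gene of smallest p and the gene of highest mean FPKM among genes at an unadjusted p under 0.05 whose doses did not overlap, since 0 genes passed. The comparison and the lists were chosen with earlier results of these data known. The F1 average, the lists at an unadjusted p, the likelihood-ratio and bias-adjusted quasi-likelihood tests and limma-voom were chosen after seeing the data. Lists by gene name and marker genes were planned and not analysed here, since 0 identifiers could be named.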

Additional observations from a re-analysis of the deposited data

Results flagged for a closer look

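Groups of 4 fish were examined for a fish far from the other 3, and 5 of 63 groups were flagged, where chance flags about 1 in 20 (5%). In BPA40, replicate 3 stood below the others for GSONMT00052436001, at 1497 CPM against 1694 to 1699, with a gap of 0.973 of the range of the group. The same fish stood above the others in the level of the genes higher in BPA40 than Control at F2 365 dpf, at 1.42 against −0.80 for the nearest and −1.17 for the lowest fish (gap 0.855). It also stood above them in the level of the 500 genes most variable between Control fish, at 0.52 against −0.37 for the nearest (gap 0.922). In BPA4, replicate 3 stood above the others in the level of the genes lower in BPA40 than BPA4 at F2 365 dpf at an unadjusted p under 0.05, at 0.22 against −0.03 for the nearest (gap 0.907). It also did so in the median deviation of all genes tested, at 0.02 against 0.01 (gap 0.935).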

How the results depend on the processing

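At an adjusted p under 0.05, BPA40 against BPA4 gave 0 genes, 89 with DESeq2, 61 with edgeR's likelihood-ratio test, 1 with limma-trend and 0 to 2 with each fish left out, 2 being without Control replicate 3. At an unadjusted p under 0.05 it gave 2004 genes, 1474 to 2421 with a fish left out and 2956 with limma-voom. The interaction with F2 365 dpf gave 55 genes with DESeq2 and 0 to 3 with a fish left out, 3 being without BPA40 replicate 3. The F1 average gave 251 genes, 586 with DESeq2 (448 higher and 138 lower), 93 with the replicate block and 98 to 339 with a fish left out. The average with F2 112 dpf gave 2 genes, 8 with DESeq2, 1 when thinned and 0 with at least 10 fragments in every fish or with the replicate block. The average with F2 365 dpf gave 4 genes, 58 with DESeq2, 2 without TMM, 2 with at least 10 fragments and 0 with the replicate block. F1 140 dpf alone gave 2 genes, 183 with DESeq2, 6 without TMM and 8 with at least 10 fragments. F2 112 dpf gave 10 and F2 365 dpf 235 with DESeq2, and F2 365 dpf gave 1 with at least 10 fragments. The causes were not tested.

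Whether the replicate numbers pair the fish was not settled. Fish of the same number deviated together with correlations of −0.03 to 0.28, and 2 of 4 were over 0.1 and 2 of 4 correlated best with their own number. With the replicate number as a block, 0 genes were called and 1991 lay at an unadjusted p under 0.05 (1289 higher and 702 lower). The log2 fold change of each named gene kept its sign in every alternative run for it. The doses did not overlap for any of these genes, which were picked in the same fish. The kept sign therefore follows from their choice and is not a separate result. GSONMT00062445001 was called by DESeq2, limma-trend and the likelihood-ratio test, and GSONMT00080773001 by DESeq2 and the likelihood-ratio test. The difference in the share of the most abundant genes was 0.00 percentage points, changed sign with 100 genes in place of 10 (−2.58) and lay between −0.25 and 0.27 with a fish left out.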
